A study of Mus musculus with 5 samples.

Results

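Background capture of RNA in an RNA immunoprecipitation from mouse hippocampus was described by setting the control made with anti-HA in a wild-type animal against the controls made with IgG. The wild-type library holds RNA that stayed with the anti-HA antibody and beads where no tagged protein was present, and the IgG libraries hold RNA that stayed with an antibody of no stated target. For each knock-in number, regions with identical chromosome, start and end in the list over wild type and the list over IgG were joined, and the reads of the 2 controls were compared. The joins held 3212 regions for knock-in 1, which is 76.6% of the 4191 regions of its IgG list and 60.0% of the 5355 of its wild-type list. For knock-in 2 they held 1587 regions, which is 82.7% of 1920 and 29.6% of 5362. The comparison used 3 of the 5 libraries of the series. The lists were made for the knock-in HA library, so the regions are not a sample of all RNA.

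The study looked for mRNAs bound by Cyfip1, per its design text, in hippocampi of C57BL/6 mice. The 5 libraries are anti-HA from knock-in 1 and 2, mouse control IgG from knock-in 1 and 2, and anti-HA from wild-type 1. All lysates were held with antibody for 2 h at 4 °C, bound to Protein G beads and washed 5 times. The labels used here give neither the knock-in allele, nor age, nor whether animals were pooled, and 1 wild-type library stands for its group. Genotype, animal and antibody differ together between the groups compared and cannot be told apart, and the 2 folds of a gene share the wild-type library.

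An antibody against a short peptide tag can retain RNA with no tagged protein present, for example through proteins it cross-reacts with or through the beads. Non-specific IgG from the same species measures the retention by antibody and beads in general. A wild-type animal treated with the tag antibody measures what that antibody holds by itself. CYFIP1 is a subunit of the WAVE complex, which starts branched actin networks, and a partner of the RNA-binding protein FMRP.

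Stretches of 6 RNAs that carried large differences between the 2 kinds of control are shown first, from the longest coding transcript, or the ribosomal RNA itself, in GENCODE M21 (GRCm38) within joined regions, 5′ to 3′ on the strand of the gene. The first 4 come from mRNAs with more wild-type anti-HA reads and the last 2 from RNAs with more IgG reads. No base is in capitals, as no motif was searched. Macf1 is exon 48 at chr4:123452231-123452350, minus strand; Myh9 is exon 31 at chr15:77768921-77769040, minus strand. Actn1 is exon 15 at chr12:80174523-80174642, minus strand; Akap6 is exon 13 at chr12:53141601-53141720, plus strand. Rps7 is exon 6 at chr12:28631655-28631774, minus strand, and mt-Rnr2 is a ribosomal RNA stretch at chrM:1201-1320, plus strand.
Macf1: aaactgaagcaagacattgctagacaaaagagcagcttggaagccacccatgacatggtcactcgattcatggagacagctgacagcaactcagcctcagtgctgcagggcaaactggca
Myh9: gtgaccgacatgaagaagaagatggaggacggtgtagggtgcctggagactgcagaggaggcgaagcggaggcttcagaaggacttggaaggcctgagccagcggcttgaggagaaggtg
Actn1: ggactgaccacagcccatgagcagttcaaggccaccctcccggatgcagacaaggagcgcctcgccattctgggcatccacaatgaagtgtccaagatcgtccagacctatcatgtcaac
Akap6: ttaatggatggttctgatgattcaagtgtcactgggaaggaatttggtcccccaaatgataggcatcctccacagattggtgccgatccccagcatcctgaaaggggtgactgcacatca
Rps7: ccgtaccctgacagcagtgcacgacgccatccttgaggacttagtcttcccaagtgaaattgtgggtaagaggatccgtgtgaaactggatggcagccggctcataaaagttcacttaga
mt-Rnr2: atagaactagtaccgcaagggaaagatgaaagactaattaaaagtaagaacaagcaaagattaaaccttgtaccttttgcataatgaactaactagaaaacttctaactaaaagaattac

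Joined regions held 41515 wild-type, 15145 IgG 1 and 48529 knock-in HA reads for knock-in 1. For knock-in 2 they held 19263 wild-type, 23076 IgG 2 and 30615 knock-in HA reads. These are reads in joined regions only, so the depth of the libraries is unknown. Of the joined regions, 397 and 462 had 20 or more reads in the 2 controls together, and their median ratio of wild-type to IgG reads was 1.97 and 0.438. A fold is the ratio of wild-type to IgG reads divided by that median ratio, so a fold of 1 means the ratio of the median region. With 1 library a side there is no test. The 95% intervals are exact counting intervals. They and the floors hold counting error only, because 1 library a side gives no spread between replicates. PCR copies of a molecule were not told apart, so the intervals can be too narrow even for counting error.

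A few regions took a large share of the reads. A 230 bp stretch inside overlapping Cmss1 and Filip1l, chr16:57391441-57391670, touched no annotated exon and held 14042 wild-type, 1734 IgG 1 and 6996 knock-in HA reads, which is 33.8% of all joined wild-type reads in that join. A 200 bp stretch outside the annotated genes, chr8:15519801-15520000, held 4441 wild-type, 756 IgG 2 and 2083 HA reads, which is 23.1% of the joined wild-type reads for knock-in 2. Its fold was 3.64 over IgG 1 (with 4401 wild-type reads in that list) and 13.4 over IgG 2.

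Wild-type reads should be the same in both wild-type lists, and 189 of 193 regions in both carried equal numbers. The 4 others were the chr8 stretch, a chr14 stretch with 357 and 354 reads, Dcaf10 with 5 and 30, and Luzp1, with 150 wild-type reads in one list and 0 in the other. Luzp1 was accordingly 11.5-fold over IgG 1 and at most 0.118-fold over IgG 2, and no direction is given for it or for Dcaf10.

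Regions at 4-fold or more numbered 52 of 397 over IgG 1 (13.1%) and 59 of 462 over IgG 2 (12.8%). Regions at 0.25-fold or less numbered 24 (6.05%) and 22 (4.76%). With the ratio of all joined reads as the scale, which shifts every log2 fold by -0.48 and -0.93, the higher and lower regions were 38 and 41 over IgG 1 and 42 and 78 over IgG 2, and with the median of each chromosome as the scale 41 and 13, and 26 and 24. Summed over the regions of a gene, 548 and 521 genes had 20 or more control reads. Of these, 23 (4.2%) and 22 (4.22%) were 4-fold or more higher, and 34 (6.2%) and 14 (2.69%) were at 0.25-fold or less.

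**Figure D1:**
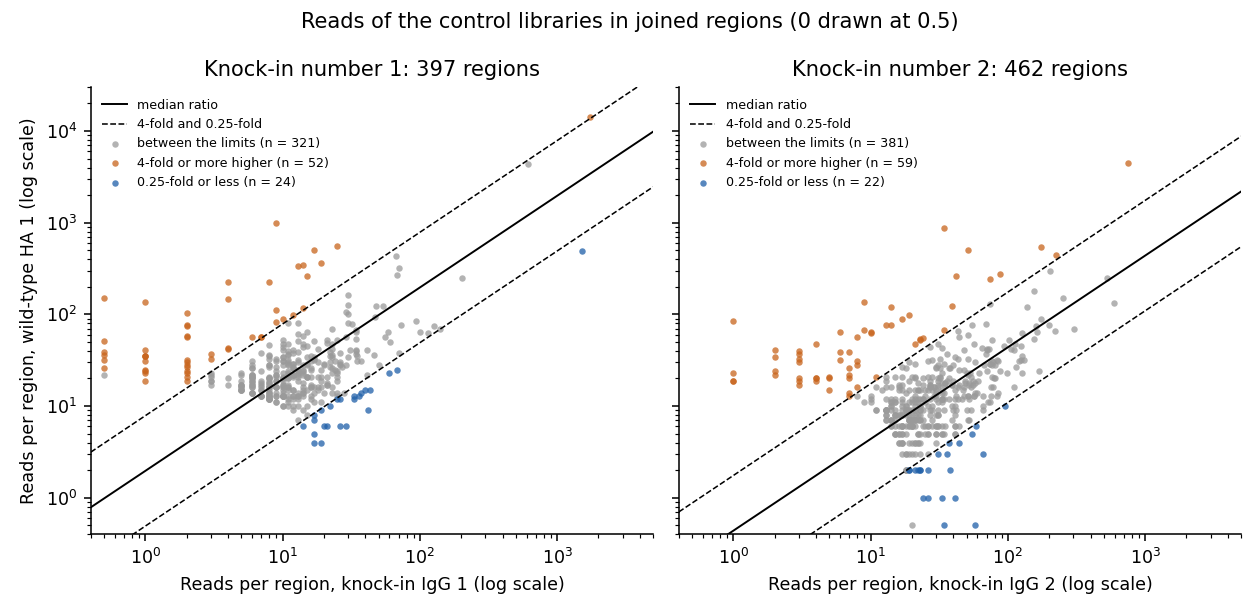
Reads of wild-type HA 1 (vertical axis) against knock-in IgG 1 (left) and IgG 2 (right) in each joined region with 20 or more control reads, both axes on a log scale; the solid line is the median ratio and the dashed lines are 4-fold and 0.25-fold from it. Orange points (52 and 59) lie at or above the upper line and blue points (24 and 22) at or under the lower one.

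Among 213 genes measured over both IgG libraries, 9 (4.23%) were 4-fold or more higher in both: Myh9, Macf1, Gm12896, Mpdz, Akap6, Actn1, Agap2, D430019H16Rik and A230087F16Rik. Only 2 (0.939%), Nek9 and Ttc8, were at 0.25-fold or less in both. With the ratio of all joined reads as the scale these numbers were 4 and 21, and without knock-in IgG 2 there were 27 lower genes. Above the median ratio in both were 62 genes and below it in both 93. The 2 log2 folds of a gene differed by a median of 0.76, and their SD, which holds the variation of the IgG libraries only, had a median of 0.54 (n = 2).

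Myh9, the heavy chain of a non-muscle myosin, stood highest of the 213 over each IgG library. It held 1285 wild-type, 13 IgG 1 and 126 knock-in HA reads in 4 regions, and 1020 wild-type, 49 IgG 2 and 84 HA reads in 3 regions. Per length this was 44.2 against 0.447 reads per kb, and 35.4 against 1.70. Its fold was 50.3 (95% interval 29.3 to 94.7) over IgG 1 and 47.5 (35.7 to 64.7) over IgG 2, so the mean log2 fold was 5.61 ± 0.06 (SD, n = 2). In reads, the wild-type library was above both IgG libraries and above both knock-in HA libraries.

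The widest Myh9 region of knock-in 1, chr15:77760541-77777070, touched 22 exons and the end of the gene, and held 1003 wild-type and 9 IgG 1 reads. That of knock-in 2, chr15:77763106-77783625, touched 26 exons and held 882 and 34 reads. The exon 31 stretch printed above lies in both.

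Macf1 encodes a giant plakin that links actin to microtubules. It held 3611 wild-type, 147 IgG 1 and 1104 knock-in HA reads in 27 regions, and 1450 wild-type, 166 IgG 2 and 484 HA reads in 15 regions. Its fold was 12.5 (10.6 to 14.8) and 19.9 (17.0 to 23.6), with a mean log2 fold of 3.98 ± 0.48 (SD, n = 2). On the scale of its own chromosome, where most regions over IgG 2 are its own, it was 7.02- and 1.03-fold. With 20 or more reads there were 22 and 15 Macf1 regions, and every one touched an annotated exon.

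The Macf1 folds ran from 3.17 through a median of 14.4 to 69.7 over IgG 1, where 20 of 22 were at 4-fold or more. Over IgG 2 they ran from 12.1 through 25.1 to 52.5, and all 15 were at 4-fold or more. The regions lay between 0.234 and 333.6 kb from the start of a gene of 334.7 kb. Wild-type reads, not scaled, exceeded IgG reads in each of them. Most of these regions held under 20 IgG reads and passed the minimum only with their wild-type reads. Among these were regions with 22 wild-type and 0 IgG 1 reads and with 502 wild-type and 17 IgG 1 reads. The filter favours regions with a wild-type excess. Its part in the folds was not tested, nor was the spread of the excess over the gene.

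**Figure D2:**
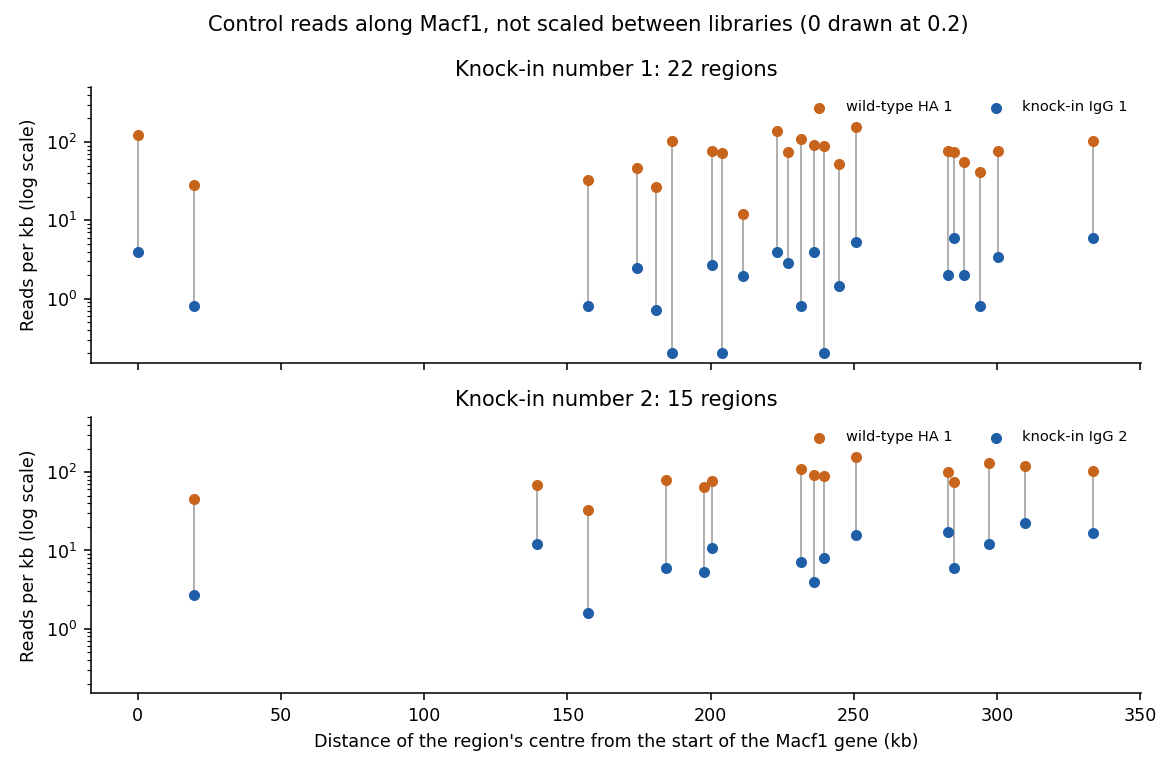
Reads per kb (log scale, not scaled between libraries) of wild-type HA 1 and of knock-in IgG 1 (upper panel, 22 regions) or IgG 2 (lower panel, 15 regions) in each Macf1 region, against its distance in kb from the start of the gene. Each wild-type point lies above the IgG point of its region, and regions with 0 IgG reads are drawn at 0.2.

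Actn1, the actin-bundling alpha-actinin, held 151 wild-type, 15 IgG 1 and 26 HA reads, and 133 wild-type, 44 IgG 2 and 26 HA reads. Its folds were 5.12 (3.01 to 9.38) and 6.90 (4.87 to 9.94). As for Myh9, the wild-type library was above both IgG and both HA libraries. Akap6, an anchoring protein for protein kinase A, held 77 wild-type, 7 IgG 1 and 48 HA reads, and 263 wild-type, 46 IgG 2 and 108 HA reads. Its folds were 5.60 (2.59 to 14.4) and 13.1 (9.52 to 18.3). The region with the printed exon 13 stretch, chr12:53141601-53143600, was joined over IgG 2 with 62 wild-type, 10 IgG and 21 HA reads. At the end of the gene, chr12:53148241-53155440 was joined over IgG 1 with 57 wild-type, 7 IgG and 34 HA reads.

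Agap2, an Arf GTPase-activating protein of neurons, held 98 wild-type, 12 IgG 1 and 81 HA reads, and 568 wild-type, 184 IgG 2 and 454 HA reads, with folds of 4.15 (2.27 to 8.32) and 7.05 (5.96 to 8.37), the second of which was 0.797 without chromosomes 12 and 15. Mpdz, a scaffold with many PDZ domains, held 49 wild-type and 3 IgG 1 reads, an 8.31-fold difference (2.68 to 41.7). Over IgG 2 it held 21 wild-type and 0 IgG reads, at least 15.98-fold higher against the floor of 3 counts over the gene, but 0.825-fold on the scale of its own chromosome, described further on. Gm12896 was at least 5.43-fold higher over IgG 1, with 32 and 0 reads, and 25.1-fold (7.88 to 128.0) over IgG 2, with 33 and 3, but 3.05- and 1.30-fold on the scale of its own chromosome. D430019H16Rik was 4.75- and 4.65-fold, and A230087F16Rik 4.07- and 4.57-fold. Clmn, an actin-binding membrane protein, was 3.23- and 8.13-fold, and Ldoc1l was 3.22- and 4.36-fold.

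**Figure D3:**
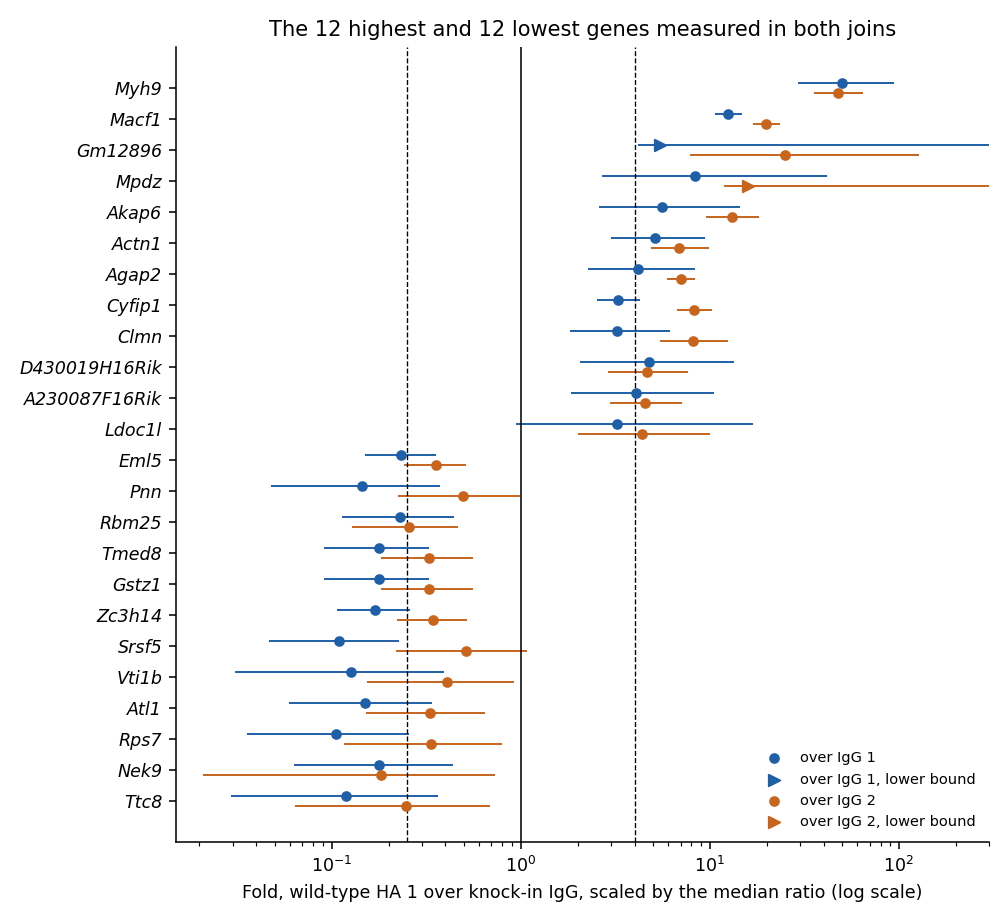
Scaled folds of wild-type HA over IgG 1 (blue) and IgG 2 (orange) with 95% counting intervals on a log axis, for the 12 genes with the highest and the 12 with the lowest mean log2 fold; triangles are lower bounds, intervals end at the axis limit where they run past it, and dashed lines mark 4-fold and 0.25-fold. Myh9 is the highest at 50.3 and 47.5, and Ttc8 the lowest at 0.120 and 0.247.

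Further actin and plakin mRNAs were measured over 1 IgG library. Lima1, an actin-bundling LIM protein, held 84 wild-type, 1 IgG 2 and 12 HA reads in 1 region that it shares with Gm17058, a fold of 192 with an interval of 33.5 to 7665. Plec, a plakin, held 65 wild-type and 10 IgG 2 reads (14.8-fold). Dst, also a plakin, held 102 and 7 over IgG 1 (7.41-fold, 3.47 to 18.9). Mical3, an actin-oxidising enzyme, held 131 and 15 over IgG 1 (4.44-fold). Ank3, the ankyrin of the axon initial segment, held 99 and 19 over IgG 2 (11.9-fold). Sptb, a spectrin, held 24 wild-type and 0 IgG 1 reads, at least 4.07-fold; it was picked after its value was seen. In each of these genes the wild-type library held more reads than IgG, and more than knock-in HA.

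By list, 7 of 49 actomyosin genes were measured over IgG 1 and 4 over IgG 2, and 3 and 3 of them were at 4-fold or more and none at 0.25-fold or less. Of all genes measured, 4.2% and 4.22% were at 4-fold or more and 6.2% and 2.69% at 0.25-fold or less, the background against which the counts of every list stand. The measured genes of that list had a median fold of 2.10 and 27.2, where the median of all genes measured was 0.787 and 0.888. For plakins and spectrins 3 of 18 were measured each time, all 3 at 4-fold or more in each, with a median of 7.41 and 14.8. The 12 measured FMRP target mRNAs had a median of 2.05 and 4.00, with 3 and 6 at 4-fold or more and none at 0.25-fold or less; the members at 4-fold or more over IgG 1 were Macf1, Dst and Agap2, so the lists share members. On the own-chromosome scale Plec alone of the 6 over IgG 2 stayed at 4-fold or more (15.2), while Ank3 was 3.28-, Agap2 1.94-, Macf1 1.03-, Shank1 0.522- and Dlgap3 0.208-fold. These lists were drawn up with earlier results of the same data known, and the 3 lists give no independent evidence of their direction.

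For the NHS and WAVE list the median was 0.827 over IgG 1 (6 measured, none called) and 2.12 over IgG 2 (4 measured, 1 at 4-fold or more, Cyfip1). Cyfip1 itself held 431 wild-type, 67 IgG 1 and 6101 knock-in HA reads, in 1 region that spans Nipa2 and Gm17907 too, a 3.27-fold difference (2.53 to 4.30). Over IgG 2 it held 416 wild-type, 115 IgG and 6186 HA reads, 8.26-fold (6.70 to 10.2). It was 0.953-fold on the scale of its own chromosome, where most regions over IgG 2 are its own. Both kinds of control lay far below the HA libraries for Cyfip1. Nhsl1, an actin regulator that binds the WAVE complex, held 27 wild-type, 5 IgG 1 and 2230 HA reads, and 23 wild-type, 21 IgG 2 and 1672 HA reads, with folds of 2.75 and 2.50, the second of which was 0.690 on the scale of its own chromosome. C77080 held 16 and 8, then 16 and 21, control reads beside 348 and 515 HA reads (1.02- and 1.74-fold, the second 0.0898 on its own chromosome's scale). Wasf1, the WAVE subunit that activates Arp2/3, was 0.636- and 1.19-fold, the second of which was 0.328 on the scale of its own chromosome.

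Of the glutamate receptor complex, 2 and 3 of 34 genes were measured, with 0 and 2 at 4-fold or more, none at 0.25-fold or less and a median of 2.17 and 4.03. Of microtubule and motor genes 4 and 6 of 32 were measured, with 0 and 1 at 4-fold or more, none at 0.25-fold or less and a median of 1.63 and 1.59. Dlgap3, a postsynaptic scaffold, held 240 wild-type, 61 IgG 1 and 228 HA reads, 2.00-fold (1.51 to 2.70). Over IgG 2 it held 67 wild-type, 38 IgG and 90 HA reads, 4.03-fold (2.66 to 6.16), and 0.208-fold on its own chromosome's scale. Shank1 and Shank2, scaffolds of the same density, were 4.53-fold (446 and 225 reads) and 3.98-fold (129 and 74) over IgG 2, and 0.522- and 0.459-fold on their own chromosome's scale. Dync1h1, the dynein heavy chain, was 2.09-fold over IgG 1 with 374 and 91 reads and 3.20-fold over IgG 2 with 383 and 273. Kif1b, a kinesin, was 2.80-fold over IgG 1, and Mapk8ip2, a kinesin adaptor picked after its value was seen, 17.3-fold over IgG 2. Among presynaptic mRNAs none of 4 and none of 2 was called, with a median of 0.837 and 1.02, and for channels and pumps none of 5 and none of 3, with a median of 1.55 and 1.39.

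At the other end lay RNAs with more reads in IgG. Rps7, a protein of the small ribosomal subunit, held 6 wild-type, 29 IgG 1 and 21 HA reads, 0.105-fold (0.0357 to 0.258), and 6 wild-type, 41 IgG 2 and 16 HA reads, 0.334-fold (0.116 to 0.792). Of ribosomal protein genes 3 and 5 were measured, all below 1, with a median of 0.239 and 0.761; 2 over IgG 1, Rps7 and Rpl37, were at 0.25-fold or less and none over IgG 2. mt-Rnr2, the large mitochondrial ribosomal RNA, held 497 wild-type, 1520 IgG 1 and 907 HA reads, 0.166-fold (0.150 to 0.184), and was measured over IgG 1 only.

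The imprinted long noncoding RNA Rian was 0.281-fold over IgG 1 with 63 and 114 reads, and 0.415-fold over IgG 2 with 6 and 33. Mirg, from the same locus, was 0.346-fold over IgG 2. Snhg14, a host of clustered small nucleolar RNAs, was 0.471-fold over IgG 2 with 45 and 218 reads. In 2 of its 200 bp regions, chr7:59516201-59516400 and chr7:59516601-59516800, the reads were 1 and 3 in wild type, 41 and 66 in IgG 2, and 37 and 53 in knock-in HA. In these 2 regions IgG 2 held more reads than knock-in HA, not scaled, and the wild-type library almost none. For knock-in 2 the median ratio of knock-in HA to IgG reads in joined regions was 0.8, so IgG 2 exceeded HA in the median region too.

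Of the 213 genes measured over both IgG libraries, only 11 remained without chromosomes 12 and 15. Chromosome 12 held 109 of the 397 regions with 20 or more reads over IgG 1 and 190 of the 462 over IgG 2. All of the 12 lowest genes lie on chromosome 12, whose median fold was 0.654 over IgG 1 and 0.811 over IgG 2. Among them, Srsf5, Pnn and Rbm25 encode splicing proteins and Zc3h14 a poly(A)-binding protein. Srsf5 was 0.109- and 0.514-fold, Pnn 0.145- and 0.496-fold, Rbm25 0.230- and 0.256-fold and Zc3h14 0.170- and 0.344-fold. Nek9, a kinase of mitosis, held 7 wild-type and 20 IgG 1 reads (0.178-fold) and 2 wild-type and 25 IgG 2 reads (0.183-fold). Ttc8, a subunit of the ciliary BBSome, held 4 and 17 (0.120-fold) and 4 and 37 (0.247-fold). Eml5, Atl1 and Vti1b were 0.233-, 0.151- and 0.127-fold over IgG 1 and 0.357-, 0.331- and 0.410-fold over IgG 2. Tmed8 and Gstz1 share 1 region and had the same folds, 0.177 and 0.329. Relative to their own chromosome, Nek9 was 0.272- and 0.225-fold and Ttc8 0.183- and 0.304-fold, and no gene was at 0.25-fold or less in both on that scale.

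Of 16 long noncoding RNAs 1 and 3 were measured and none was called; of 15 mitochondrial genes mt-Rnr2 alone was measured, and of 21 structural small RNAs Rmrp alone, 1.08-fold over IgG 2 and 0.0556-fold on its own chromosome's scale.

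Markers of cell types were thinly covered. None of the oligodendrocyte, microglia, endothelium and blood, or interneuron markers was measured in either join. Slc1a3 of astrocytes was 0.735- and 2.28-fold, Ntsr2 0.822-fold over IgG 2, Enpp2 of the choroid plexus 1.93- and 2.06-fold, and the neuronal Bcl11b 1.02- and 2.63-fold, none past 4-fold or 0.25-fold.

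The folds moved with the width of the region, with exons and with the chromosome. Regions under 1 kb had a median fold of 6.11 over IgG 1 (n = 19) and 11.1 over IgG 2 (n = 46), those of 1 to 5 kb 1.53 and 1.22, and those over 5 kb 0.824 and 0.840. Narrow Macf1 regions passed the minimum of 20 control reads only with their wild-type reads. The part of that filter in the medians by width was not tested. Without Macf1 and Cyfip1 the median of the narrow regions was 4.15 (n = 11) and 3.63 (n = 21), and 4 of the 21 were at 0.25-fold or less. Regions with exons on 20% or more of their bases had a median of 1.02 and 1.14, those with exons on fewer bases 0.561 and 0.744, and those with no exon 1.19 (n = 11) and 0.770 (n = 12). Outside chromosomes 12 and 15 the order over IgG 1 was the other way, 1.17 with exons on 20% or more of the bases and 1.27 on fewer (n = 28, those with no exon included). The part of width and exon share in the gene folds was not tested.

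Genes with longer coding sequences had higher folds. The median went from 0.683 and 0.761 under 1000 bp to 1.02 and 1.22 at 4000 bp or more. Across genes, Spearman's rho of coding length and log2 fold was 0.244 (n = 465) and 0.271 (n = 431), and that of GC content of the coding sequence and fold was 0.218 (n = 457) and 0.342 (n = 423). Control reads per kb, which enter the fold themselves, gave 0.495 and 0.261. These are descriptions across genes that share libraries and are not independent replicates.

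Of the joined regions for knock-in 2, 1462 of 1587 lay on chromosomes 12 and 15, as did 405 of the 462 with 20 or more reads, so those 2 chromosomes set the scale. Their median fold over IgG 2 was 0.895, and that of the 57 other regions was 8.85. Over IgG 1 the medians were 0.763 (n = 159) and 1.18 (n = 238). By chromosome, the median over IgG 2 was 19.4 on chromosome 4 (24 regions, 15 of them Macf1), 8.66 on chromosome 7 (n = 20) and 3.63 on chromosome 10 (n = 11).

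**Figure D4:**
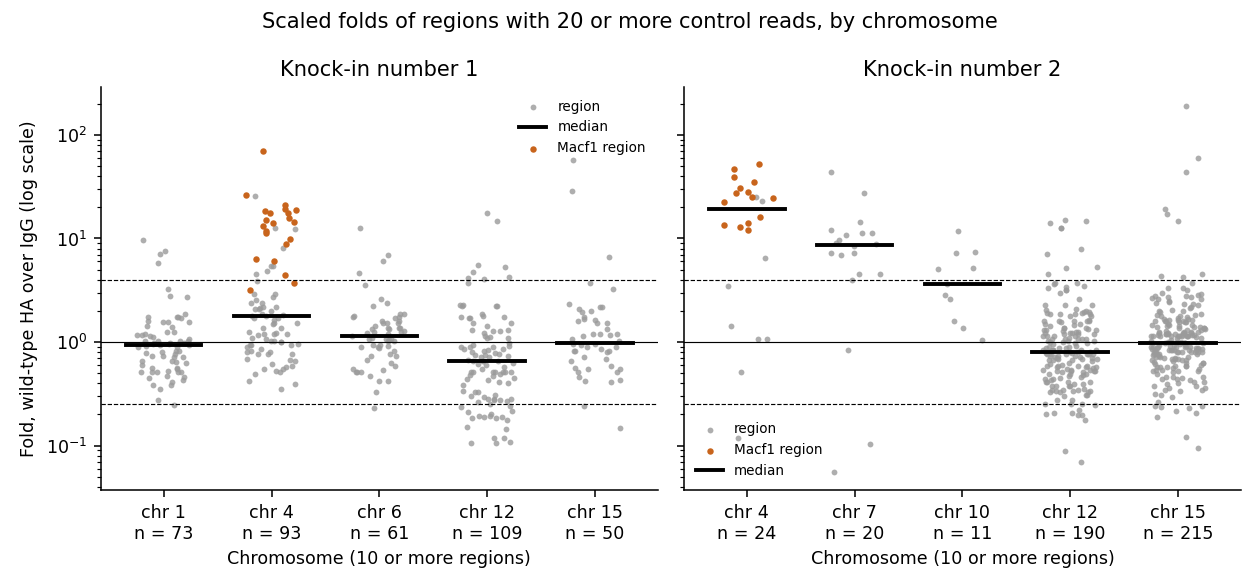
Scaled folds (log axis) of regions with 20 or more control reads, by chromosome with 10 or more such regions, over IgG 1 (left) and IgG 2 (right); black bars are medians and Macf1 regions are orange. Over IgG 2 the median is 0.811 on chromosome 12 and 0.979 on chromosome 15, against 19.4, 8.66 and 3.63 on chromosomes 4, 7 and 10.

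Relative to the median of their own chromosome, Myh9 was 50.9- and 48.6-fold, Actn1 7.83- and 8.51-fold, Akap6 8.56- and 16.1-fold, Clmn 4.94- and 10.03-fold, and Dync1h1 3.20- and 3.95-fold. Over IgG 2, most chromosome 7 regions are those of Cyfip1 and most chromosome 4 regions those of Macf1. The own regions of these genes thus set their scale, and other genes there are set against them. The folds over IgG 2 of genes on chromosomes 4, 7 and 10 were lower on the own-chromosome scale. Cyfip1 was 0.953-fold, Fgfr2 0.836-fold (7.25 on the common scale, with 549 and 173 reads), Shank1 0.522-fold, Dlgap3 0.208-fold and Mpdz 0.825-fold. Agap2 was 1.94-fold, Gm12896 1.30-fold and Ank3 3.28-fold. Without chromosomes 12 and 15, Agap2 was 0.797-fold over IgG 2. On the own-chromosome scale 12 of 52 named genes crossed 1 over IgG 2, among them also Nhsl1, C77080, Shank2, Wasf1 and Rmrp. Of the 9 genes at 4-fold or more in both, 5 were so on the own-chromosome scale too (Myh9, Actn1, Akap6, D430019H16Rik and A230087F16Rik).

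A test across replicates was possible in regions present in all 4 lists. Of 42 such regions, 39 had equal wild-type reads, and 18 had 20 or more control reads. The fit was limma on log2(reads + 0.5), scaled by the median ratios above, over all 5 libraries, so that the wild-type library is assumed to vary like the IgG and HA pairs. Its spread was pooled over the tested regions, many of them of Macf1, so all 18 had the same SE, 0.742. An SE or p-value of this fit thus does not measure the spread of its region alone. With limma, 11 of 18 regions (61.1%) were higher in wild type at a Benjamini-Hochberg adjusted p of 0.05, and 0 were lower; at an unadjusted p of 0.05 the numbers were also 11 and 0. The minimum counts wild-type reads, and 9 of the 11 had under 20 IgG reads, so they passed it only with the wild-type reads. Oxct1, Enpp2 and Poldip3 passed in the same way and were not called. The filter favours regions with a wild-type excess, and its part in the calls was not tested, so the count is a description only. With no minimum, limma called 11 of 39 regions (28.2%) higher and 0 lower (14 and 0 at an unadjusted p of 0.05): 9 of Macf1, 1 of Myh9 and 1 that Fam221b and Gm12481 share. With the minimum of 20 reads set on the 4 knock-in libraries, it called 8 of 24 (33.3%) higher and 0 lower, at an unadjusted p of 0.05 also 8 and 0: all 7 Macf1 regions that remained and 1 region outside genes. The region that Fam221b and Gm12481 share held 3 wild-type reads, and the region outside genes 2, with 0 reads in both IgG libraries each time. These 2 calls rest on the 0.5 added to the reads and on the scale. In the 18 regions, the log2 difference between the IgG libraries, after scaling, had an SD of 0.79 and reached 2.17 at most. The wild-type excess was larger than that in 10 of the 18. Most of these 10 passed the minimum only with their wild-type reads, so this count too is a description only.

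All 9 Macf1 regions tested were higher by limma, but with a scale taken from the 18 tested regions alone 2 of the 9 were, and 1 had a log2 difference of -0.17. The largest difference was in chr4:123452001-123453250, which holds the exon 48 stretch, with 137 wild-type reads, 1 and 9 IgG reads, and 37 and 39 HA reads. Its log2 difference by limma with the minimum on the knock-in libraries was 5.30 (SE 0.94, adjusted p = 2.0e-05). The SE of 0.94 was shared by every region of that setting, and the SE of 1.01 below by every region with no minimum. Neither measures the spread of a single region. In the exon 48 region the wild-type value lay above both IgG and both HA values. In Myh9, the first-exon region chr15:77841766-77842335 held 19 wild-type reads, 0 and 1 IgG reads and 5 and 2 HA reads, and reached 20 control reads only with the wild-type reads. Its log2 difference by limma with no minimum was 4.60 (SE 1.01, adjusted p = 0.000308), and it has under 20 knock-in reads.

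Nhsl1 gave the one further call, at chr10:18523681-18527040, with 21 wild-type reads, 2 and 17 IgG reads, and 1273 and 1380 HA reads. Its log2 difference by limma was 1.81 (SE 0.74, adjusted p = 0.0325), but -1.40 with a scale taken from these 18 regions alone. Its limma adjusted p ran from 0.00549 with a variance trend to 0.175 with no minimum of reads, and was 0.092 on the 3 control libraries alone and without either HA library, and 0.158 with the minimum on the knock-in libraries. Dlgap3, with 47 wild-type and 10 and 31 IgG reads, was at 1.49 (limma adjusted p = 0.0777). Wasf1, with 15 wild-type and 12 and 33 IgG reads, was at -0.29 (limma adjusted p = 0.783). With a scale taken from these 18 regions alone, 9 of them Macf1, limma called 3 higher and 7 lower in place of 11 and 0, and without the Macf1 regions it called 1 of 9 higher, Myh9.

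**Figure D5:**
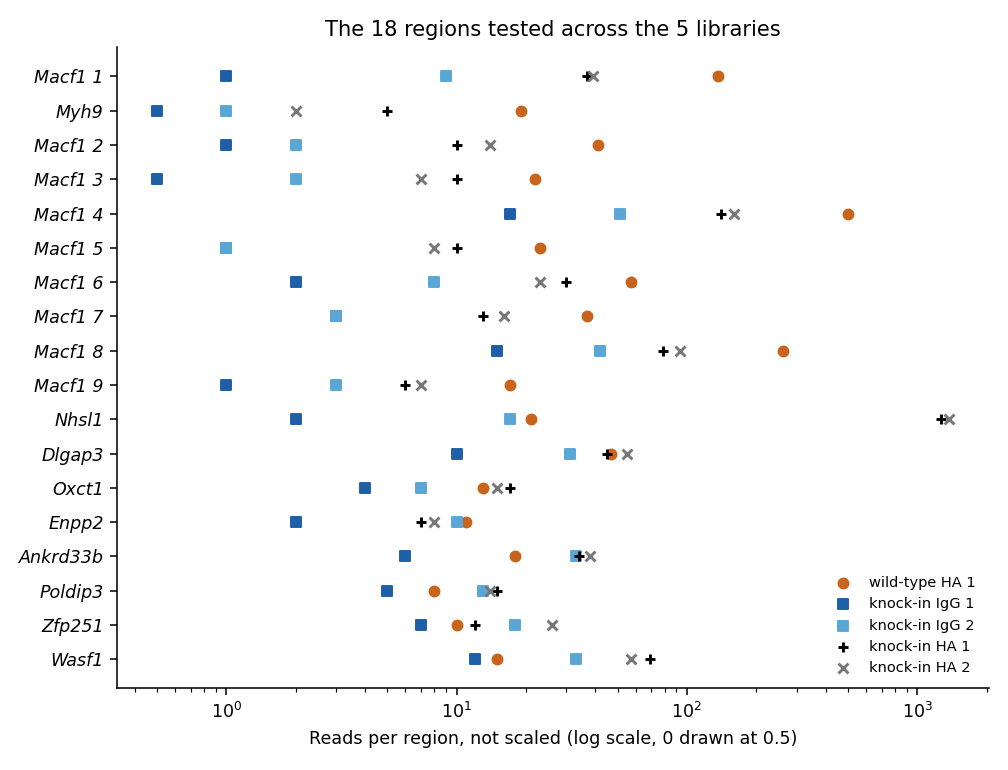
Reads (log scale, not scaled between libraries) of the 5 libraries in the 18 tested regions, with 0 drawn at 0.5, ordered by the limma difference of wild-type HA and IgG; Macf1 regions are numbered from the largest difference. In the 9 Macf1 regions and in Myh9 the wild-type point lies to the right of all 4 knock-in points, while in Nhsl1 both knock-in HA points lie at 1273 and 1380.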

How the data were processed

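Hippocampal RNA bound by antibody was sequenced from 5 libraries with an Illumina HiSeq, 50 cycles, single-end, per the labels. TopHat and TopHat2 and the builds GRCm38 and mm10 are named in the submitters' processing notes; per the file headers, rtracklayer 1.28.9 wrote the lists. No source used here names the region caller. The deposited lists give, as attributes of each region, other values: read counts of the HA library and of its control, not scaled for library size, and the authors' adjusted p-values. Reads outside regions are not in the lists.

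Regions were joined on identical coordinates, scaled by the median ratio of regions with 20 or more control reads, and called at 4-fold and 0.25-fold; where 1 control had no read, 3 counts stood in for it, per region or gene. Knock-in HA reads were equal in both lists for all 3212 and 1587 joined regions. GENCODE M21 held 99.3% of the 2445 gene identifiers, and overlapping genes share reads. The planned count model was replaced by limma 3.58.1 (R 4.3.3) on log2 reads, as reads sit in attributes without a header; its other normalizations and the GC content of regions were not run. The limma step was tested on simulated data. Python 3.11.15, scipy 1.17.1 and matplotlib 3.10.9 were used. Nothing in the labels says that libraries of a group are separate animals beyond their number, so p-values measure only the spread between libraries.

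Members, gene lists and limits were chosen with earlier results of these data known. Named were 14 genes always, the 12 highest and 12 lowest in both joins, the 8 with most wild-type reads per join and up to 4 per list; Nhs, Fmr1 and Malat1 had no joined region with 20 control reads, nor had Nhsl2.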

Additional observations from a re-analysis of the deposited data

How the results depend on the processing

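Of 865 alternative values of named genes, 752 stayed within the counting interval, and 10 were folds of 4 or more that fell below 1. Many of the 752 come from settings that leave the reads and scale of a gene nearly unchanged, so their number is no measure of stability. With the pooled ratio 46 values left the interval and 58 stayed. Without chromosomes 12 and 15, 20 stayed, 14 left it and 5 more fell below 1. Over all named genes, whatever their fold, 54 values crossed 1, of which 12 did so with the pooled ratio, 12 without chromosomes 12 and 15 and 14 on the own-chromosome scale. The number tested changes with the setting, so each count stands beside it. Regions at 4-fold or more over IgG 1 (52 of 397) became 19 of 116 with 50 control reads and 81 of 763 with 10. They were 27 of 152 where both lists gave an authors' adjusted p below 0.05. Those at 0.25-fold or less (24 of 397) became 41 of 397 with the pooled ratio as the scale, 13 of 116 with 50 reads and 57 of 763 with 10. They were 5 of 238 without chromosomes 12 and 15, 11 of 152 with the authors' p and 13 of 386 on the own-chromosome scale. Over IgG 2 the 59 of 462 higher became 27 of 173 with 50 reads and 4 of 57 without chromosomes 12 and 15. They were 28 of 414 in regions over 1 kb and 26 of 460 on the own-chromosome scale. The 22 of 462 lower became 78 of 462 with the pooled ratio, 5 of 173 with 50 reads and 45 of 711 with 10. They were 12 of 57 without chromosomes 12 and 15, 10 of 342 with the authors' p and 13 of 414 over 1 kb. Genes at 4-fold or more in both (9 of 213) became 4 of 213 with the pooled ratio (Akap6, Macf1, Mpdz, Myh9) and 3 of 79 with 50 reads (Akap6, Macf1, Myh9). They were 0 of 11 without chromosomes 12 and 15 and 2 of 78 with the authors' p. Genes at 0.25-fold or less in both (2 of 213) became 21 of 213, 0 of 79, 0 of 11 and 1 of 78 under the same settings. These lower genes were 5 of 327 with 10 reads, 1 of 201 over 1 kb and 0 of 209 on the own-chromosome scale. With 1 IgG library left out they numbered 10 to 13 higher and 3 to 27 lower, the 27 without knock-in IgG 2. The pooled ratio shifts every log2 fold by -0.48 and -0.93. By limma the 11 higher and 0 lower became 8 of 24 and 0 with a minimum of 20 reads over the 4 knock-in libraries, 3 and 7 with a scale from these regions alone and 1 higher without Macf1 regions (3 higher and 0 lower at an unadjusted p of 0.05), and 10 to 13 and 0 with 1 library left out, a lone library being assumed to vary like the others. Without chromosomes 12 and 15, folds over IgG 2 reversed for Cyfip1 (0.934), Agap2 (0.797), Fgfr2 (0.819), Shank1 (0.512) and Dlgap3 (0.455), as they did on the own-chromosome scale for Cyfip1 (0.953), Mpdz (0.825), Fgfr2 (0.836), Shank1 (0.522) and Dlgap3 (0.208). Beyond the construction of each setting, the cause was not tested. The own-chromosome scale, the limit of 1 kb, the removal of regions with unequal reads, the pseudocount of 2, the variance trend, the minimum over the 4 knock-in libraries and, for limma, the scale from the tested regions or from the pooled ratio, the regions of unequal reads and the removal of Macf1 were chosen after seeing the data; 2 planned count models and 2 planned normalizations were not run. No paired analysis was possible because the wild-type and IgG groups share only the number 1. The low depth per region, a median of 3 and 8 control reads over all joined regions, limits most values.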

Other observations

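Some genes outside the naming rule were chosen after their values were seen. Syne2, a giant nesprin with spectrin repeats that links the nucleus to actin, held 21 wild-type and 1 IgG 1 reads, a fold of 10.7 with an interval of 1.72 to 441.8, and 5 wild-type and 1 IgG 2 reads, which is under the 20 reads asked for. Akap2, an anchoring protein for protein kinase A like Akap6, held 32 wild-type and 2 IgG 1 reads (8.14-fold, 2.08 to 70.1). Klf13, a zinc finger transcription factor, held 111 wild-type, 9 IgG 1 and 127 knock-in HA reads (6.27-fold, 3.19 to 14.1). On the low side, Nsmce2, a SUMO ligase of chromosome maintenance, held 1 wild-type and 24 IgG 2 reads (0.0951-fold, 0.00231 to 0.583).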
